A study of Homo sapiens with 28 samples.

Results

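The clustered protocadherin genes lie in 3 adjacent groups on human chromosome 5, the alpha (PCDHA), beta (PCDHB) and gamma (PCDHG) clusters. Their members here are all ChIP-seq peaks on chromosome 5 from 140.165 to 140.900 Mb (hg19), whatever their mark or height. That window of 735 kb held 168 of the 317841 peaks in the 16 deposited lists. The PCDHA cluster (from the window's start to position 140392000) held 83 of them, the PCDHB cluster (140430000 to 140628000) 17 and the PCDHG cluster (140710000 to 140893000) 38. A further 14 lay between PCDHA and PCDHB, 10 between PCDHB and PCDHG, and 6 past the end of PCDHG.

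Clustered protocadherins are cell-surface adhesion proteins of the cadherin superfamily, best known in neurons, where each cell uses its own few isoforms and so can tell its own branches from those of its neighbours. In the alpha and gamma clusters every variable exon has a promoter of its own and is spliced to constant exons shared by the whole cluster, whereas each beta gene is a single exon. Most variable promoters carry a short conserved sequence element, and the choice among them involves CTCF, cohesin and distant enhancers. The last alpha and gamma genes, named C-type, are used less selectively in neurons than the others.

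The cells were human embryonic stem cells of a Fucci line, which carries fluorescent reporters whose abundance follows the cell cycle, grown without serum or feeder cells in a defined medium with heregulin, activin A, a long form of IGF-1 and FGF2. They were sorted into early G1 (double negative, labelled DN), late G1 (KO2), S phase (AzL) and G2/M (AzH), and no genotype or treatment differed between fractions. Each fraction gave 1 ChIP library for each of H3K4me3, a mark of active and poised promoters, H3K27me3, a mark of Polycomb-repressed chromatin, H3K27ac, a mark of active promoters and enhancers, and H3K4me1, a mark of enhancers. Input libraries were not analysed here. A mark had a single library in each fraction, so nothing could be tested between fractions, and each difference below describes these libraries. The label of embryonic stem cells could not be checked against marker expression, since expression was not measured.

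A peak list holds only what passed the authors' caller, so a region that is not listed in a fraction is not shown to lack the mark there. Read depth behind the lists is unknown here. The H3K4me3 lists held 24757 to 28735 peaks, the H3K27me3 lists 19989 to 31682, the H3K27ac lists 10268 to 32521 and the H3K4me1 lists 1878 to 6280. Heights are the authors' deposited values on a scale that is not given, and they differed between libraries. The median H3K4me3 height over regions marked in all fractions of the genome was 135 for early G1, 65.6 for late G1, 77.0 for S phase and 75.8 for G2/M. Wherever 4 values stand together below, they follow this order.

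The promoters themselves can be shown from RefSeq, whose GRCh38.p14 annotation lists 53 protein-coding clustered protocadherin genes: 15 alpha, 16 beta and 22 gamma, of which 5 are C-type. Promoter sequences were at hand for 47 of them, in 52 windows that run from 250 bases before to 50 bases after an annotated start. The first set shows the sequence around CGCT, the letters by which the short shared element was sought. It prints 30 bases, 5′ to 3′ on the plus strand of chromosome 5, around the first CGCT that starts between 90 and 30 bases before the start, with CGCT in capitals. The letters and their window were chosen after these sequences were seen.
PCDHA1 (chr5:140786089-140786118): ggccacatgatgtCGCTgtacaccacaaag
PCDHA8 (chr5:140841133-140841162): agccacatgatgtCGCTgtctaccaagaag
PCDHA10 (chr5:140855844-140855873): agccaccggatgtCGCTgtcgtccacaaaa
PCDHA12 (chr5:140875247-140875276): agtcacatgatgtCGCTctacactcagaag
PCDHB2 (chr5:141094547-141094576): agacgcggggtggCGCTgcagccttagaag
PCDHB7 (chr5:141172569-141172598): aaacgcaaggtggCGCTgctggctaaaaag
PCDHB15 (chr5:141245317-141245346): caacgcatggtggCGCTgcaggctaaggct
PCDHGA3 (chr5:141343770-141343799): ggcctcttagtgtCGCTgttgaccactcaa
PCDHGA5 (chr5:141364110-141364139): ggactctgagtgtCGCTgttgaccaaagtg
PCDHGB4 (chr5:141387620-141387649): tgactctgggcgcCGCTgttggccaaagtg
PCDHAC2 (chr5:140966422-140966451): tgagccctcctacCGCTccctttccccctc
PCDHGC3 (chr5:141475883-141475912): ggactctgtgtgcCGCTgtcggccaatgaa
Among the variable genes printed, the flanks around these 4 letters differed between clusters only in part. TGTCGCTGT was in PCDHA1, PCDHA8 and PCDHA10, and also in PCDHGA3 and PCDHGA5. For each cluster the run of 10 bases around CGCT shared by the largest number of its variable windows was counted in full windows on both strands. In the alpha cluster it was TGATGTCGCT, in 8 of 11 windows of variable genes and 0.0342% of all 35116 promoter windows. In the beta cluster it was GGTGGCGCTG, in 12 of 14 windows and 0.276% of all. In the gamma cluster it was GCGCCGCTGT, in 10 of 22 windows of variable genes and 0.131% of all. None of the 3 runs was in a window of another protocadherin set. All 3 contain CGCT, and each was picked from the windows it is counted in. No C-type window held any of them. The gamma run was also missing from the printed bases of PCDHGA3 and PCDHGA5, so its absence does not set C-type genes apart. In its printed bases PCDHGC3 shared GACTCTG, GCCGCTGT and GGCCAA with PCDHGB4, while PCDHAC2 held none of these. Whether the CGCT printed for PCDHAC2 or PCDHGC3 is the element was not tested. In the stretch from 90 to 30 bases before the start, CGCT on the gene's strand was in 10 of 11 variable alpha windows, 12 of 14 beta, 16 of 22 variable gamma and 4 of 5 C-type windows. Together these were 42 of 52 (80.8%), beside 19.1% of all promoter windows. The 52 windows belong to 47 genes. PCDHGB1, PCDHGB4, PCDHGB5, PCDHGB6 and PCDHGC4 each had a window with CGCT in that stretch and an overlapping window without it. These genes therefore count on both sides, and shares by gene were not counted. On the opposite strand, where CGCT reads AGCG, it was in 10 of 52 (19.2%), beside 19.4% of all. Anywhere in the 300 bases and on either strand, CGCT was in 98.1% of the clustered protocadherin windows and in 70.0% of all.

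The second set shows examples of variable and C-type promoters, without a variable gamma one. It prints the 250 bases before the start of the first alpha gene, the last beta gene, and a C-type gene each of the alpha and gamma clusters, on the plus strand of GRCh38.p14, with every CGCT in capitals.
PCDHA1 (chr5:140785890-140786139): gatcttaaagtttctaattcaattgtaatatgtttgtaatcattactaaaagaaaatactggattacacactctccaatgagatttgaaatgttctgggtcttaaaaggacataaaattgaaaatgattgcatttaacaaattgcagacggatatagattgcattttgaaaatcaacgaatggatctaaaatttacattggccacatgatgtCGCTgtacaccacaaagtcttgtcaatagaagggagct
PCDHB15 (chr5:141245145-141245394): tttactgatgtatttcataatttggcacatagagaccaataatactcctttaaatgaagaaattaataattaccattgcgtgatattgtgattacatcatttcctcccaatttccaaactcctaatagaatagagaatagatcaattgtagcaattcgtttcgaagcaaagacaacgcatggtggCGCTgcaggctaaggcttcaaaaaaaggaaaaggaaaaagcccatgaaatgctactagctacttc
PCDHAC2 (chr5:140966226-140966475): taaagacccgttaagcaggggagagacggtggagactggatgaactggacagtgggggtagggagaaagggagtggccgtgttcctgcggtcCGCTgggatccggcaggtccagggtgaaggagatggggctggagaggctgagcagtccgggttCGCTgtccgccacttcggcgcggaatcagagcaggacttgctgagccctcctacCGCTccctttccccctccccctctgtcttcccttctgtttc
PCDHGC3 (chr5:141475716-141475965): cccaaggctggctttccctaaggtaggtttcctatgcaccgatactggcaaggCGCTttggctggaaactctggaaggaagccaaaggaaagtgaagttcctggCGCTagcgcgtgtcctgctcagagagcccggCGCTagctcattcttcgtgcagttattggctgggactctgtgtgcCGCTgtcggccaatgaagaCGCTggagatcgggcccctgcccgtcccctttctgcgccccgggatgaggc
Over the 300-base windows, median GC content was 36.0% for variable alpha (33.7 to 40.3%), 40.8% for beta (33.3 to 46.3%) and 43.7% for variable gamma windows (32.3 to 65.0%), against 62.3% for the C-type and 58.7% for all promoters. The median number of CpG dinucleotides was 7, 7.50 and 7.50 for the variable windows, 23.0 for C-type and 14.0 for all. Counts ran from 2 to 25 in variable gamma and from 15 to 27 in C-type windows. The variable gamma and C-type ranges thus overlapped in GC and in CpG. The peaks are in hg19 and these sequences in GRCh38.p14. An hg19 annotation was not used here, so no peak below is tied to a named gene or promoter, and merged H3K4me3 regions stand in for promoters.

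H3K4me3 made up 94 of the 168 peaks and was most widely listed in early G1. The window held 30, 16, 21 and 27 H3K4me3 peaks, which covered 18.3, 6.33, 9.10 and 10.1 kb. Late G1 thus had 0.533 times the number of peaks of early G1 and 0.346 times their covered length, while the whole late G1 list had 1.04 times the number and 0.866 times the covered length of the early G1 list. In the better-scoring part of each list the numbers were 12, 6, 11 and 14, so that G2/M held the most and late G1 still the fewest. For scale, the genome was divided into 3634 tiles as long as the window. The median tile held 5 H3K4me3 peaks in every fraction, and 1.65%, 8.81%, 5.34% and 3.33% of tiles held as many as the window or more. By covered length the window stood out less, since 4.49%, 26.6%, 18.8% and 12.2% of tiles covered as much or more.

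**Figure D1:**
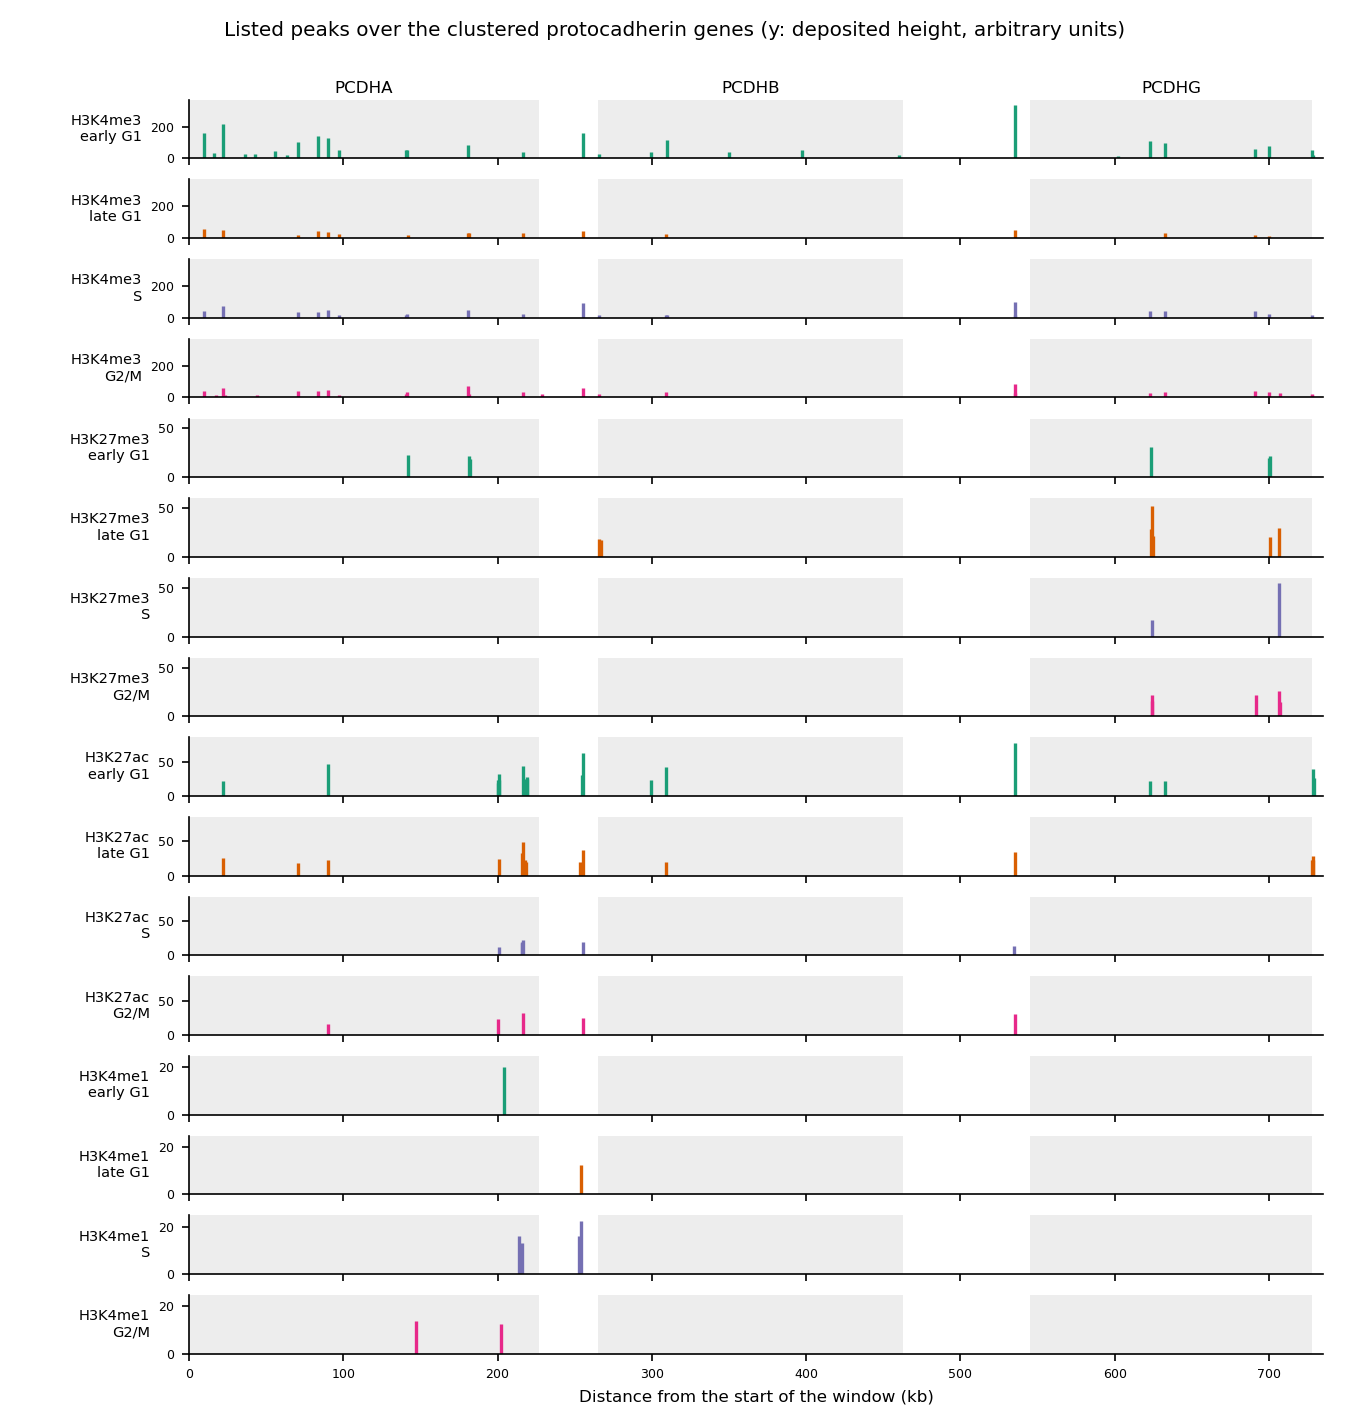
Every listed peak over the clustered protocadherin genes, 1 row per mark and fraction, with distance from the start of the window in kb on the x axis and the authors' deposited height in arbitrary units on the y axis (same scale for all fractions of a mark); grey bands are the 3 clusters. The 30 H3K4me3 peaks of early G1 reach a height of 337, and H3K27me3 is listed mostly in PCDHG.

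PCDHA carried the most H3K4me3 in every fraction. It had 15, 10, 10 and 14 peaks covering 8.32, 3.83, 4.47 and 5.03 kb, with median heights of 50.1, 31.9, 37.5 and 33.3. Heights spanned 24.3 to 215, 17 to 58.4, 16.9 to 75.1 and 13.1 to 69.4. The early G1 range reached far above the others, while the lower ends overlapped. Early G1 alpha regions lay a median of 7.36 kb apart (0.738 to 43.9 kb).

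PCDHB had 6, 1, 3 and 2 H3K4me3 peaks covering 3.35, 0.575, 0.550 and 0.625 kb. Their median heights were 41.8, 26.5, 19.1 and 27, with 19.8 to 115 in early G1 and a single peak in late G1. Early G1 beta regions were a median of 40.5 kb apart, so 6 regions stood in a cluster of 16 protein-coding genes.

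PCDHG had 6, 3, 5 and 6 H3K4me3 peaks covering 4.00, 0.975, 2.38 and 2.62 kb. Median heights were 67.6, 19.2, 41.9 and 29.8, with ranges of 17.9 to 113, 15.3 to 30.4, 19.5 to 45.6 and 15.1 to 38.2. The tallest early G1 peak of each cluster was above every peak of that cluster in the other fractions. In all 3 clusters late G1 held fewest or joint fewest peaks.

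**Figure D2:**
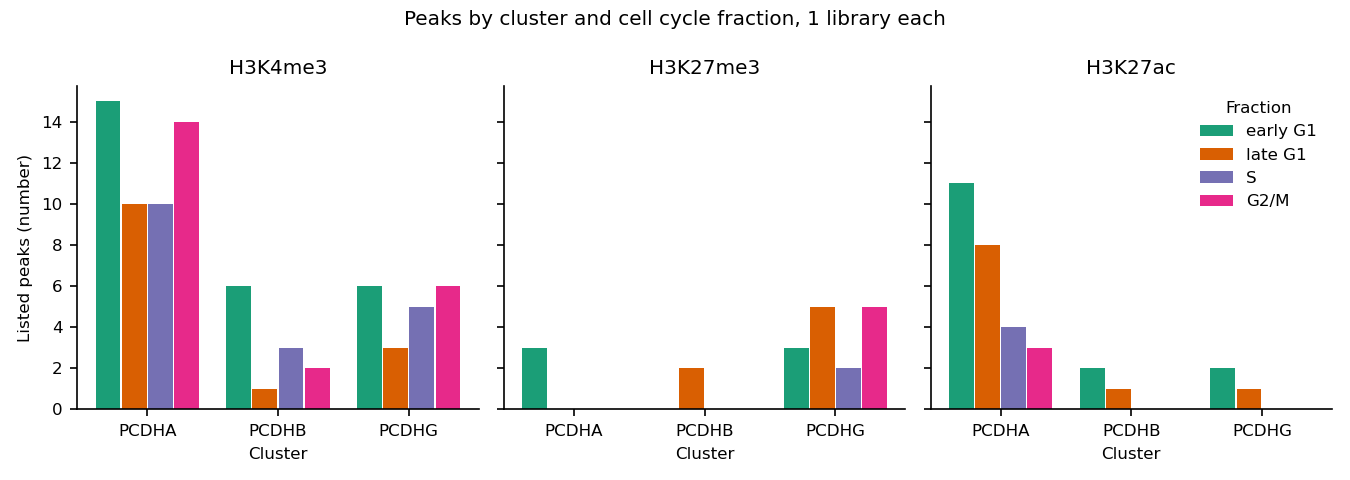
Number of listed peaks (y axis) of H3K4me3, H3K27me3 and H3K27ac in each protocadherin cluster (x axis), with 1 bar per cell cycle fraction and 1 library behind each bar. PCDHA has 15 H3K4me3 peaks in early G1 and 10 in late G1, and H3K27me3 is listed in every fraction in PCDHG alone.

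Merging peaks of the 4 fractions that overlapped or touched gave 35 H3K4me3 regions in the window, of 32239 in the genome. Of these, 15 (42.9%) were listed in all 4 fractions, beside 48.5% of all regions, and 16 (45.7%) in a single fraction, beside 33.4% of all. The exact Clopper-Pearson 95% intervals of the members' shares, 26.3 to 60.6% and 28.8 to 63.4%, contain those backgrounds. The remaining 4 regions were listed in every fraction but late G1, and the share of all regions with that pattern was not counted. PCDHA held 18 regions with 9 in all fractions, PCDHB 6 with 1, PCDHG 7 with 3, and the gaps and the end of the window 4 with 2.

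The single-fraction regions fell in early G1 (11) and G2/M (5), with none in late G1 or S. The same split over all regions was not counted, so it is not shown to be particular to the window. The 11 early G1 regions had heights of 17.9 to 52.0 with a median of 29.1, below most of the 15 constant regions, which had early G1 heights of 40.1 to 337 with a median of 103. They included 4 of the 6 beta regions: chr5:140464251-140464625 (41.1), chr5:140514851-140515250 (42.5), chr5:140561926-140562675 (52.0) and chr5:140625051-140625225 (19.8). The 5 G2/M regions had heights of 13.1 to 25.9. Divided by the library's reference median, the early G1 regions stood at 0.133 to 0.386 (median 0.216) and the G2/M regions at 0.173 to 0.342 (median 0.202), which overlap. Of the 30 early G1 regions, 15 (50%) were also listed in late G1, beside 76.4% of all early G1 regions. In S it was 19 of 30 (63.3%, all regions 78.9%), and in G2/M also 19 of 30 (63.3%, all regions 81.7%).

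The tallest H3K4me3 regions of the window were not all inside a cluster. The tallest was chr5:140699376-140700850, between PCDHB and PCDHG, with heights of 337, 53.5, 101 and 82.6. In RefSeq's gene order SLC25A2, a mitochondrial ornithine carrier, and TAF7, a subunit of the general transcription factor TFIID, stand between the last beta and the first gamma gene. The region between PCDHA and PCDHB, chr5:140419876-140420625, had 162, 47.3, 90.5 and 59.2. Both were highest in early G1 and lowest in late G1.

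Among alpha regions the tallest was chr5:140186526-140187300, with heights of 215, 49.2, 75.1 and 62.3. Next came chr5:140174326-140175050 with 164, 58.4, 41.3 and 43.8. The third, chr5:140248426-140249150, had 142, 42.8, 37.9 and 41.3. All 3 were highest in early G1 by more than 2-fold as deposited, but the first was lowest in late G1 and the others in S.

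In PCDHB the one constant region, chr5:140474101-140474950, had heights of 115, 26.5, 19.5 and 32.5. A second beta region, chr5:140430551-140431350, was low throughout, at 30.2 in early G1, 19.1 in S and 21.5 in G2/M, and was not listed in late G1. In PCDHG the tallest, chr5:140787501-140788150, had 113 in early G1, 43.5 in S and 26.9 in G2/M and was likewise not listed in late G1. The second, chr5:140797126-140797775, had 98.5, 30.4, 41.9 and 32.8. Of the others missing in late G1 alone, chr5:140892451-140893250 at the end of PCDHG, had 55.8, 19.5 and 24.3 in the other fractions, and chr5:140305476-140306150 in PCDHA had 50.1, 20.4 and 20.4.

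**Figure D3:**
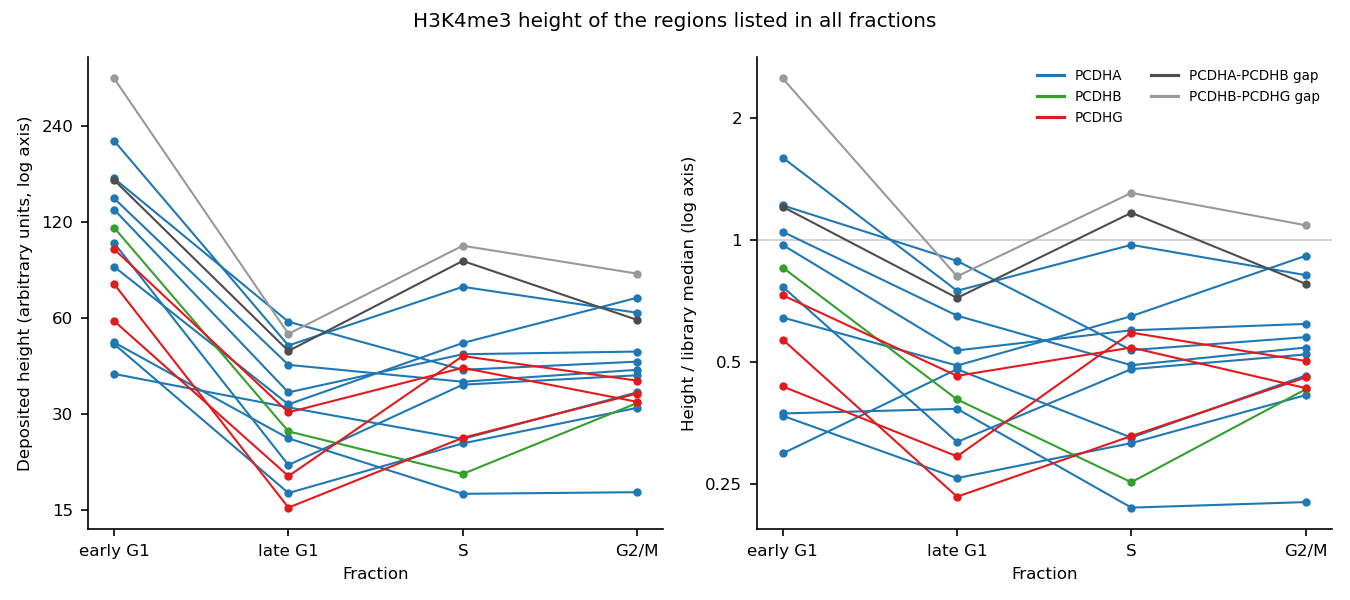
H3K4me3 height of the 15 regions listed in all 4 fractions (1 line each, coloured by cluster), as deposited in arbitrary units on the left and divided by the library's median over constant regions of the genome on the right, both on log axes. On the left every line is highest in early G1, from 40.1 to 337, and on the right 10 of the 15 are. The shares of all constant regions of the genome that were highest in early G1 were not counted.

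All 15 constant regions were tallest in early G1 as deposited, by a median of 3.31-fold over late G1 (1.27 to 6.31), 2.84-fold over S and 2.78-fold over G2/M. Most regions of the genome went the same way as deposited. Among all regions listed in both fractions compared, 85.4% were lower in late than in early G1. For S against early G1 it was 85.9%, while 17.5% were lower in early G1 than in G2/M. Part of the members' early G1 excess is the taller early G1 library as a whole. Heights were therefore divided by the library's median over the 14629 constant regions on chromosomes 1 to 21, which leaves a relative height. The members' median relative height was 0.768 (0.298 to 2.51), 0.481 (0.233 to 0.890), 0.536 (0.219 to 1.31) and 0.523 (0.226 to 1.09). The ranges overlapped, and in late G1 no member reached the library's median.

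The median log2 ratio of relative height, late over early G1, was -0.69 over the 15 members listed in both, against 0.05 over all 15673 such regions. It was lower in late G1 at 13 of 15, beside 47.7% of all regions, and at least 2-fold lower at 5 of 15, beside 5.37% of all. All regions include many with H3K27me3. Without these, 13 members had a median of -0.69 and 11998 regions a median of -0.11, with 55.5% lower. By cluster the median was -0.51 for 9 alpha regions and -0.66 for 3 gamma regions, and the single beta region had -1.08. The 3 lowest were chr5:140699376-140700850 (-1.62) outside the clusters, chr5:140864076-140865300 in PCDHG (-1.29) and chr5:140235476-140236075 in PCDHA (-1.27). The 2 that were not lower were both alpha, chr5:140381276-140381800 (0.69) and chr5:140261726-140262175 (0.04). The next highest, also alpha, was chr5:140345401-140346750 (-0.39).

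**Figure D4:**
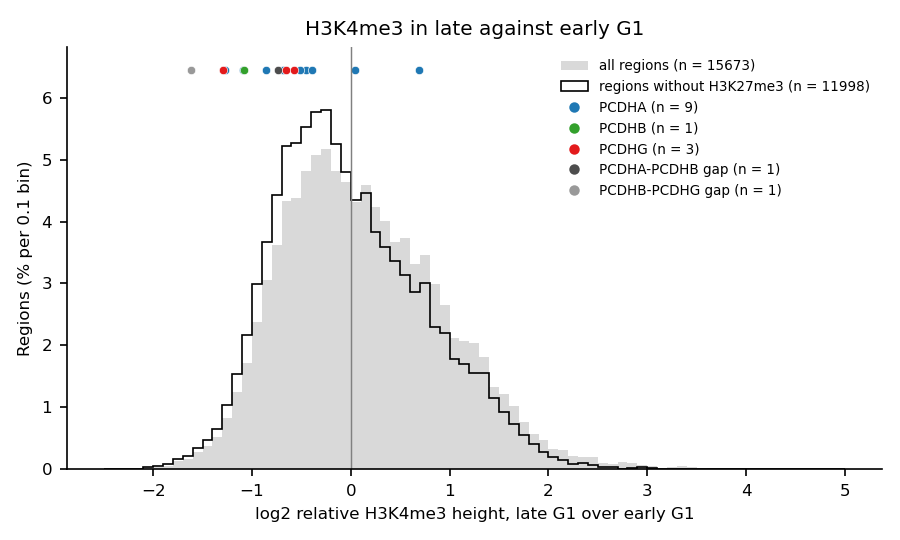
Log2 ratio of relative H3K4me3 height, late over early G1 (x axis), as the percentage of regions per bin of 0.1 (y axis), for 15673 regions in the genome (grey) and the 11998 of them without H3K27me3 in any fraction (outline); points above the curves are the 15 protocadherin regions, coloured by cluster. Of the points, 13 lie below 0, with a median of -0.69.

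The other steps had smaller or similar shifts. For S over early G1 the median was -0.67 over 19 members and -0.03 over all regions, and 15 of 19 members were lower, beside 51.9% of all. For S over late G1 the median was 0.29 over 15 members (all regions -0.06), and for G2/M over S 0.11 over 19 (all regions -0.01). For early G1 over G2/M, across division, it was 0.63 over 19 (all regions 0.03). The comparisons with early G1 share that 1 library and are not independent. With the authors' score column in place of height, the late over early G1 median was -0.46 and that of all regions 0.67. For S over early G1 the score gave -0.03 (all regions 0.60), and for early G1 over G2/M 0.06 (all regions -0.58). On that scale the members' own difference was small in these last 2 comparisons, and their distance from all regions kept its sign.

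H3K27me3 was listed at fewer peaks than H3K4me3 in every fraction. The window held 6, 7, 2 and 5 peaks covering 1.02, 2.05, 0.875 and 1.23 kb, and 30.4%, 31.6%, 54.0% and 35.6% of the tiles held as many or more. The median tile held 3, 3, 2 and 2 peaks, and the median covered length was 2.27, 2.25, 0.750 and 1.15 kb. PCDHG had 3, 5, 2 and 5 of the window's peaks. PCDHA had 3 in early G1 and none in the other lists, PCDHB had 2 in late G1 and none in the others, and the gaps had none in any. Heights ranged from 14.1 to 54.7, and the longest peak was 550 bp.

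The 20 peaks merged into 13 H3K27me3 regions, of which 9 were listed in 1 fraction, beside 55.5% of all H3K27me3 regions, and 0 in all 4, beside 18.5%. The longest stretch lay in PCDHG between 140788326 and 140790000. It held a peak of 350 bp in early G1 (30.8), peaks of 500, 550 and 150 bp in late G1 (28.1, 52.5 and 21.7), one of 350 bp in S (16.6), and peaks of 150 and 300 bp in G2/M (15.3 and 22.1). It began 176 bp past the tall gamma H3K4me3 region chr5:140787501-140788150 and did not overlap it. The other tall site was chr5:140871526-140872050, also in PCDHG, not listed in early G1, with late G1 at 29.4, S at 54.7 and G2/M at 26.3. The PCDHB peaks of late G1 had heights of 18.1 and 17.3, and the PCDHA peaks of early G1 had 19.0 to 22.9.

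Few H3K4me3 regions carried H3K27me3 as well, the combination called bivalent. A merged region was counted in a fraction when a peak of each mark overlapped it by at least 1 bp there. The peaks did not have to overlap each other. There were 2 of 30, 0 of 15, 0 of 19 and 1 of 24. The shares of all H3K4me3 regions were 21.4%, 22.4%, 16.1% and 20.4%. Over any fraction it was 3 of 35 (8.57%), beside 24.7% of all, and none was bivalent in all 4, beside 6.05% of all. For 3 of 35 the exact 95% interval was 1.80 to 23.1%, which ends below that background. For 2 of 30 it was 0.818 to 22.1%, which contains the early G1 background, and for 0 of 15 it reached 21.8%, just under the late G1 background. For 0 of 19 it reached 17.6% and for 1 of 24 it was 0.105 to 21.1%, which contain the S and G2/M backgrounds. The intervals treat regions as independent and cover counting error only.

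The 3 bivalent regions differed in kind. At chr5:140345401-140346750 in PCDHA, H3K4me3 was listed throughout (86.8, 32.2, 50.1 and 69.4) and H3K27me3 in early G1 alone, as a peak of 150 bp and height 22.1. At chr5:140864076-140865300 in PCDHG, H3K4me3 was also listed throughout (76.6, 15.3, 25.3 and 34.8), and the H3K27me3 peak of early G1 spanned 100 bp at its very end, with height 19.9. The third, chr5:140871726-140871950 in PCDHG, was the reverse. Its H3K4me3 was listed in G2/M only (25.9), inside the H3K27me3 region chr5:140871526-140872050 that was listed in the 3 fractions other than early G1.

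Of the 13 H3K27me3 regions, 3 overlapped an H3K4me3 region of any fraction (23.1%, all H3K27me3 regions 22.1%). Another 8 lay within 500 bp without overlap (61.5%, all 5.42%), and 2 lay farther away. Neighbouring H3K27me3 regions can lie beside the same H3K4me3 region, so the 8 are not independent. Counting H3K27me3 within 500 bp in the same fraction raised the bivalent number to 4, 1, 0 and 2, with 25.2%, 25.7%, 18.2% and 23.4% of all regions. Within 2500 bp it was 5, 1, 1 and 3, with 28.7%, 29.6%, 21.2% and 26.9% of all.

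H3K27ac was listed at 20, 15, 6 and 5 peaks covering 6.95, 4.85, 1.40 and 2.65 kb. The median tile held 6, 6, 1 and 4 peaks, and 8.61%, 16.8%, 15.2% and 42.0% of tiles held as many as the window or more. By covered length it was 8.50%, 13.7%, 14.8% and 17.4% of tiles. PCDHA had 11, 8, 4 and 3, PCDHB 2, 1, 0 and 0, and PCDHG 2, 1, 0 and 0. The gap before PCDHB had 2, 2, 1 and 1, the gap before PCDHG 1 in each, and the end of the window 2, 2, 0 and 0. The S list as a whole held 0.340 times and the G2/M list 0.647 times the peaks of the early G1 list. In the window these ratios were 0.3 and 0.25. From S to G2/M the list grew 1.90-fold in number and 2.21-fold in covered length. The window's number did not grow, while its covered length rose 1.89-fold. Taking the same number of best-scoring peaks from each list left 8, 5, 6 and 4.

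Of H3K4me3 regions, 11 of 30, 7 of 15, 3 of 19 and 4 of 24 also had H3K27ac in that fraction (36.7%, 46.7%, 15.8% and 16.7%), beside 37.3%, 24.4%, 6.94% and 13.6% of all. The exact 95% intervals of the members' shares (19.9 to 56.1%, 21.3 to 73.4%, 3.38 to 39.6% and 4.74 to 37.4%) contain these backgrounds. The 22 merged H3K27ac regions included 2 listed in all 4 fractions (9.09%, all H3K27ac regions 10.6%). One was chr5:140380626-140381800 in PCDHA, with 43.0, 49.4, 22.6 and 32.5, over the alpha H3K4me3 region with the highest ratio of late to early G1 (0.69). The other was chr5:140419576-140420750 between PCDHA and PCDHB, with 62.5, 37.9, 19.1 and 25.1. The tallest H3K27ac peak of the window, at 77.8 in early G1, lay on the tallest H3K4me3 region, before PCDHG. There late G1 had 35.1 and G2/M 30.7, and a separate peak of 14.1 was listed in S. That S peak touches the region's S H3K4me3 peak without overlapping it, and the region is among the 3 of 19.

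Away from H3K4me3, the alpha cluster had a group of H3K27ac peaks at 140365226 to 140366400. Its nearest H3K4me3 region was 14876 bp or more away, and it was listed in every fraction through different peaks, at 23.3, 23.5 and 31.6 in early G1, 23.7 in late G1, 12.6 in S phase and 23.5 in G2/M. A second group at 140382251 to 140384375, 451 to 2351 bp from H3K4me3, was listed in early G1 (24.7, 28.0 and 25.2) and late G1 (22.3 and 19.6) only. Of the 22 H3K27ac regions, 13 overlapped an H3K4me3 region (59.1%, all H3K27ac regions 31.8%), 1 lay within 500 bp without overlap (4.55%, all 4.66%) and 8 lay farther away. In PCDHB and PCDHG every H3K27ac region overlapped an H3K4me3 region. The beta ones were chr5:140474151-140474650 (42.5 in early G1, 20.5 in late G1) and chr5:140464326-140464500 (23.0 in early G1). The gamma ones were chr5:140892601-140892900 (23.1 in late G1), chr5:140797301-140797425 (21.4 in early G1) and chr5:140787651-140787725 (21.3 in early G1). In PCDHA, chr5:140254901-140255350 had 46.9 in early G1, 22.6 in late G1 and 15.3 in G2/M, also on H3K4me3.

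H3K4me1 was listed at 1, 1, 4 and 2 sites, and its lists were short in all fractions. The 8 peaks formed 7 regions, 0 of them listed in all 4 fractions, beside 0.297% of all H3K4me1 regions. The one site listed more than once was chr5:140418651-140418900, between PCDHA and PCDHB, at 12.5 in late G1 and 22.4 in S, the tallest H3K4me1 peak of the window. It lies before the H3K4me3 and H3K27ac site of that gap, and an H3K27ac peak of 20.2 was listed on it in late G1. A further S peak (15.9) lay at chr5:140417801-140418025. All other H3K4me1 peaks were in PCDHA, at 19.9 in early G1, 16.2 and 13.2 in S, and 13.9 and 12.6 in G2/M, and PCDHB and PCDHG had none listed.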

How the data were processed

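Fucci human embryonic stem cells were profiled by ChIP-seq (16 lists analysed here) and 4C-seq (8 libraries, from viewpoints beside GATA6 and SOX17), with 1 library per group as the labels give it. Per the submitters' processing notes, Bowtie 0.12.7 was among the tools and hg19 and mm9 were the builds, with no role stated. How peaks were called, with which settings and filters and whether with inputs, was not given in the sources used here. Each ChIP file is a list of the authors' peaks called for 1 library. Its deposited signal column (the peak height) has no stated scale, and its deposited score column is negative and tends to be more negative for taller peaks, with exceptions. Every peak on the chromosomes coded 22 to 24 has a height of 0, so heights are compared on chromosomes 1 to 21. Positions were read as hg19. The deposited 4C table holds counts, whole-number reads per restriction site. No p-value was computed, and 0 per-sample columns were left unused.

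Peaks of a mark that overlapped or touched were merged across fractions, and a region's height in a fraction is its tallest peak. Regions with an H3K4me3 and an H3K27me3 peak in 1 fraction, each overlapping the merged region by at least 1 bp, were counted as bivalent. The merging and ratio steps were tested on simulated data and returned the values put in. Scripts ran in Python 3.11.15 with pandas 2.3.3, numpy 2.4.6, scipy 1.17.1 and, for figures, matplotlib 3.10.9. Gene order and promoter windows came from RefSeq tables of GRCh38.p14, used for names, order and sequences alone, and coordinates were not converted between builds.

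Regions were named by a rule: the tallest 3 H3K4me3 and H3K27ac regions of a cluster (all H3K4me1 peaks), the longest H3K27me3 peaks, all bivalent regions, and the 3 highest and 3 lowest ratios of late to early G1. Regions listed in every fraction but late G1 and beta regions of a single fraction were named after their values were seen, as were other H3K27ac groups. The window, its clusters, the lists and tests were chosen with earlier results of these data known. Alternatives were stricter or equal-sized lists, longer peaks, other overlaps, other height scales and, for 4C, sites counted once or without the top site.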

Additional observations from a re-analysis of the deposited data

How the results depend on the processing

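No paired analysis was possible because each group had 1 library, and none could be left out. Of the 93 results of alternatives tried, 37 stayed the same or, for counts, lengths and 4C values, within 1.5 times, and 56 moved. In the better-scoring part of each list, which holds fewer peaks, H3K4me3 numbered 12, 6, 11 and 14 peaks and H3K27ac 12 and 6 in early and late G1. H3K27me3 then covered 0.35 kb in early G1 and 0.525 kb in S, and bivalent regions numbered 0 in early G1 and G2/M. Keeping peaks of at least 500 bp (250 bp for H3K27ac) left 18, 5, 6 and 6 H3K4me3 peaks, 8, 6 and 3 H3K27ac peaks in early G1, late G1 and S, and 0, 1.05, 0.525 and 0 kb of H3K27me3, with 0 bivalent regions in early G1 and G2/M. Equal numbers of peaks per fraction gave 8 and 5 H3K27ac peaks in early and late G1 and 1 bivalent region in early G1. Asking that H3K27me3 cover at least 50% of the region gave 0 bivalent regions in early G1. H3K27me3 within 500 bp gave 4, 1 and 2 in early G1, late G1 and G2/M, and within 2500 bp 5, 1, 1 and 3. The early G1 surplus of H3K4me3 over late G1 was present in each of these lists, but in the better-scoring part G2/M held the most.

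The median log2 ratio of H3K4me3 height, late over early G1, was -1.73 as deposited, -0.68 by rank and -0.46 by score. For S over early G1 it was -1.48, -0.34 and -0.03, and for early G1 over G2/M 1.46, 0.35 and 0.06. No direction reversed. Why the score gave smaller values was not tested.

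For 4C, reads per site relative to the rest of chromosome 5 were recounted without the window's top site, while the rest kept its own. For GATA6 they were 0.267, 0.0852 and 0.198 in late G1, S and G2/M. For SOX17 they were 0.359, 0.597, 0.758 and 0.446 in the 4 fractions. Each site with a read counted once gave 0.637 and 0.946 for GATA6 in S and G2/M, and 0.905, 0.784, 1.08 and 0.899 for SOX17. The read depth behind the peak lists is unknown, so a region that is not listed may lie just under the caller's threshold.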

Other observations

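In the 4C libraries the protocadherin window is on another chromosome than either viewpoint and holds 179 of the 55088 restriction sites of chromosome 5. From the GATA6 viewpoint it had 582, 403, 71 and 368 reads (in the order of the cycle from early G1), which is 0.891, 0.616, 0.215 and 0.605 times the reads per site of the rest of chromosome 5. From the SOX17 viewpoint it had 256, 636, 512 and 861 reads, or 0.561, 1.35, 1.97 and 1.77 times. A single site in PCDHA, at position 140185896 of chromosome 5, held 93, 357, 316 and 646 of the SOX17 reads. Without it the SOX17 values were 0.359, 0.597, 0.758 and 0.446. Leaving out the window's top site can only lower them, since the rest of chromosome 5 kept its own top sites. They therefore do not show a window below the rest. With each site that had a read counted once, the SOX17 values were 0.905, 0.784, 1.08 and 0.899. The site at 140185896 lies close before the tallest alpha H3K4me3 region, chr5:140186526-140187300. The site with the most GATA6 reads was at 140385722, in PCDHA, in early G1 (182 reads). In late G1, S and G2/M it was at 140699385 (229, 43 and 248 reads), which is inside the merged H3K4me3 region chr5:140699376-140700850 but only in the part listed in early G1. The H3K4me3 peaks of late G1, S and G2/M there start at 140699901, 140699751 and 140699801, past the site. Between 7 and 15 of the 179 sites had any read in a library, and the reads are PCR products without molecular identifiers, so a high count at 1 site may come from few ligated molecules. This was not tested.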
